A study of Mus musculus with 6 samples.

Results

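The genes described here are the ligands, receptors, binding proteins and Smads of the transforming growth factor beta (TGF-beta) and bone morphogenetic protein (BMP) superfamily, measured in a jaw muscle and a limb muscle of the mouse. They were chosen by name, as every probe set whose single gene symbol begins with Bmp, Gdf, Tgfb, Smad, Acvr, Inhb or Ltbp, or is Fst, Fstl1 or Fstl3. The choice gave 84 probe sets for 53 genes, of 22690 probe sets on the array. A probe set is a group of short probes made to read a transcript near its 3′ end, though some can read several transcripts. Of the 53 genes, 19 have several probe sets. The study compared the superficial masseter, which closes the jaw, with the tibialis anterior, which lifts the foot, in normal adult female C57Bl/6 mice aged 6 months. There were 3 masseter and 3 tibialis anterior samples, each on its own array, with no treatment and no genetic change in either group. No source used here states that these came from different mice, so p-values measure the spread between these samples, which may be technical.

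Ligands of this superfamily are secreted dimers, and many are held in a latent state in the matrix. An active ligand brings together type II and type I receptors on the cell surface. The type I receptor then phosphorylates the receptor Smads, which join Smad4 and act in the nucleus. TGF-beta, activin and myostatin signal through Smad2 and Smad3, while BMPs signal through Smad1, Smad5 and Smad9. Smad6 and Smad7 are inhibitory Smads whose genes are themselves induced by the pathway. In skeletal muscle, myostatin and activin limit fibre size through the activin receptors, and BMP signalling through Bmpr1a supports it. Myostatin itself, for want of a probe set under its symbol, is not analysed here.

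The arrays stood on a common scale, with a 2% trimmed mean signal of 150.1 on each. Testing was limited to probe sets whose log2 signal, averaged over the 6 arrays, was at least 4.84, a signal of 28.6 on the linear scale, which kept 13576. Of the 84 member probe sets 52 passed this filter, for 35 genes, and 32 did not. All 5 listed markers of skeletal muscle (Acta1, Ckm, Tnnt3, Mylpf and Myh4) passed it, with summed signals of 67192 to 82942 in masseter and 91036 to 95863 in tibialis anterior. Of these, Myh4, a fast myosin, was lower in masseter (-1.47, adjusted p = 0.00265), and the other 4 had differences between -0.18 and 0.0021. Whole muscle also contains vessels, nerve, fat and connective tissue, and fewer cells of a type cannot be told apart from less RNA per cell. The summed signal of the salivary gland markers ran from 3055 to 32868 in masseter, where masseter 1 was highest, and from 2334 to 4220 in tibialis anterior. Among them Pip (4.77, adjusted p = 0.0113) and Smr3a (3.14, adjusted p = 0.0266) were higher in masseter within each number. Masseter 2 read 563.6 and 487.6 for them against 20.7 and 58.7 in tibialis anterior 2. Amy1 differed by 1.87 (adjusted p = 0.087) and Smr2 by -0.64 (adjusted p = 0.327), and Prol1 did not pass the filter. Differences are given on the log2 scale from limma, above 0 where masseter was higher, with their standard error (SE) and n = 3 per muscle, and signals are on the deposited linear scale.

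No member passed the threshold of 0.05 on the adjusted p in either direction, 0 of 52 probe sets, against 1.18% of all kept probe sets (0.56% higher and 0.619% lower in masseter). The member nearest to it was the receptor Acvr1b, with an adjusted p of 0.0523. At an unadjusted p under 0.05 there were 10 member probe sets of 52 (19.2%), 5 higher and 5 lower in masseter, against 13.1% of all kept probe sets (6.93% higher and 6.12% lower). The signals of the muscles did not overlap for 12 of the 52 (23.1%), 7 higher and 5 lower in masseter, against 17.8% of all (9.21% higher and 8.63% lower). The median difference was -0.0028 over the members and 0.02 over all kept probe sets. On the log2 scale 2 of the 52 differed by more than 1, against 448 of all 13576 kept probe sets.

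**Figure D1:**
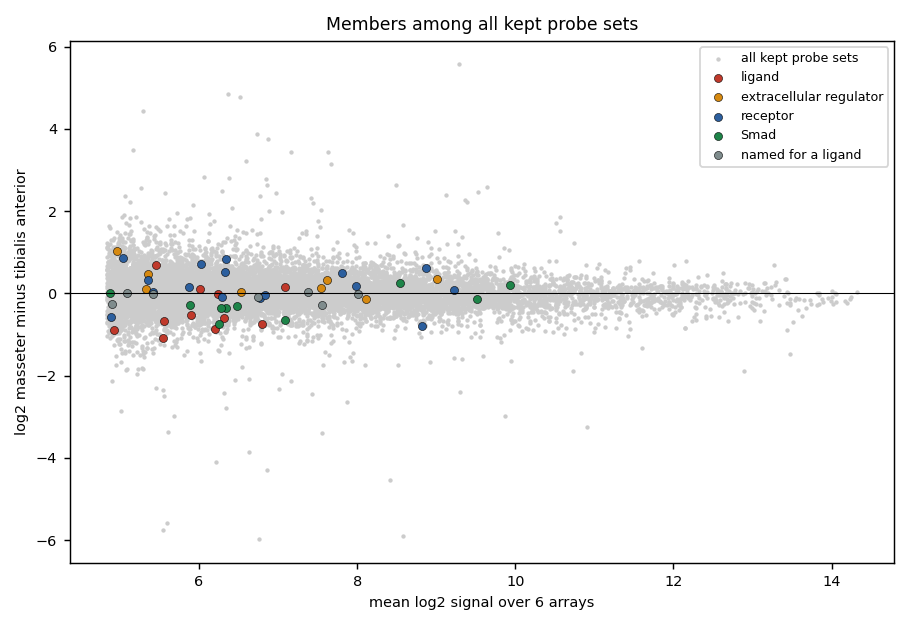
Log2 difference, masseter minus tibialis anterior (vertical axis), against mean log2 signal over the 6 arrays (horizontal axis) for the 13576 kept probe sets in grey and the 52 kept members coloured by role. The members lie between -1.09 and 1.03, inside the spread of the other probe sets at the same signal.

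Grouped by role, the medians lay on different sides of 0. The 11 kept ligand probe sets had a median difference of -0.61, with 8 below 0 and 3 above. The 10 kept Smad probe sets had a median of -0.30, with 7 below 0 and 3 above. The 16 kept receptor probe sets had a median of 0.17, with 11 above 0 and 5 below. The 8 kept probe sets of binding proteins and activating enzymes had a median of 0.23, with 7 above 0 and 1 below. Over all kept probe sets 52.9% lay above 0. Genes with several probe sets weigh more in these counts, as Bmpr1a does among the receptors and Tgfb2 among the ligands. Each gene was also read once, from its kept probe set with the highest mean signal. Then 6 of 10 receptor genes lay above 0 (median 0.14) and 3 of 9 ligand genes (median -0.61). So did 1 of 7 Smad genes (median -0.35) and 5 of 6 genes of binding proteins and activating enzymes (median 0.34). The medians over probe sets rest on few arrays. Without the arrays of number 3 that of the ligands was -0.06 and without masseter 3 it was -0.10. Without masseter 1 that of the Smads was -0.09, and without tibialis anterior 3 those of the receptors and of the binding proteins were 0.07 and 0.09. Whether the roles differ from each other was not tested.

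**Figure D2:**
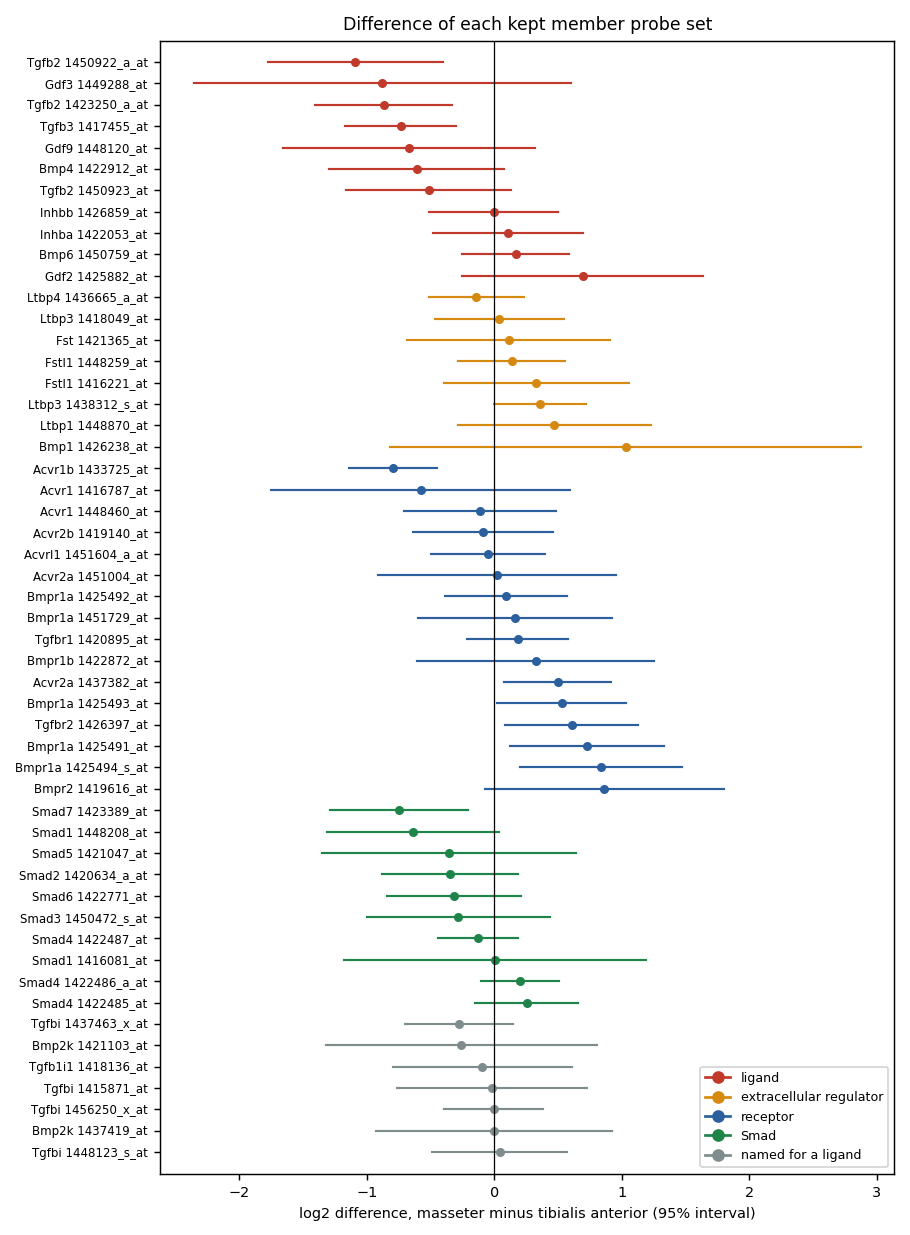
Log2 difference, masseter minus tibialis anterior, of each of the 52 kept member probe sets (points) with its 95% interval from limma (lines), ordered within each role. Tgfb2 1450922_a_at, Acvr1b and Smad7 have the lowest difference of their roles, and 3 of the 5 Bmpr1a probe sets, Tgfbr2 and Bmpr2 at the high end of the receptors.

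Among the ligands, the signals of Tgfb2, a TGF-beta of epithelia, nerve and matrix-producing cells, were lower in masseter on each of its 3 probe sets. Probe set 1423250_a_at read 51.5, 58.8 and 53.9 in masseter 1, 2 and 3 against 113.6, 106.5 and 82.0 in tibialis anterior 1, 2 and 3. The muscles did not overlap, and the difference of -0.87 ± 0.23 (SE) had an adjusted p of 0.15. Probe set 1450922_a_at read 26.0, 34.5 and 36.8 in masseter against 56.1, 66.0 and 85.7 in tibialis anterior, again without overlap (-1.09 ± 0.30, adjusted p = 0.159). The remaining one, 1450923_at, read 49.0, 59.6 and 42.3 against 63.4, 66.7 and 85.2, with the smallest gap between the muscles (-0.51 ± 0.28, adjusted p = 0.5). On all 3 probe sets each masseter array lay below every tibialis anterior array. They read 1 gene in the same RNA and so are not independent. Without masseter 1, the array with the highest salivary signal, the first and second differed by -0.83 and -0.94.

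The stretch upstream of Tgfb2 is shown because all 3 of its probe sets were lower in masseter without overlap. RefSeq's promoter table (GRCm38.p6) matched 39 of the 53 member genes, and the 250 bases before each start site were searched on both strands for 5 motifs. These were the E-box CACGTG, the cAMP-response letters TGACG, the TATA element TATAAA, the Smad-binding letters CAGAC and the GC-rich BMP-response letters GGCGCC. The sequence reads 5′ to 3′ along the gene, with every match in capitals, and lies on the minus strand at chr1:186705990-186706239.
Tgfb2: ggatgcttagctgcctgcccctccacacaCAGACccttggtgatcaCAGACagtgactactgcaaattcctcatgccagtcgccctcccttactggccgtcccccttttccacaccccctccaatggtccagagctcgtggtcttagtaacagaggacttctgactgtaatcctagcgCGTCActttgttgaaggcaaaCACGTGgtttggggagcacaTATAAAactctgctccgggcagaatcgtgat
It holds the Smad-binding letters at 2 places, the cAMP-response letters on the reverse strand, the E-box and the TATA element, with no overlap between matches. Of 32851 promoter windows of this length, 42.2% hold the Smad-binding letters, 17.8% the cAMP-response letters, 6.02% the E-box and 12.4% the TATA element. Of the 39 member genes, 48.7%, 12.8%, 10.3% and 17.9% hold them, in the same order. Among the 39 member genes the E-box was found upstream of Acvr1b, Bmp4, Bmp6 and Tgfb2. A match describes the sequence and is not a measured binding site.

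Tgfb3, the isoform that acts in palate and tendon development, had signals of 118.7, 65.1 and 83.3 in masseter against 195.7, 110.2 and 137.2 in tibialis anterior. The ranges overlapped, because array 1 was the highest and array 2 the lowest in both muscles. Within the numbers the differences were close to each other, at -0.72, -0.76 and -0.72, and the estimate was -0.73 ± 0.19 (adjusted p = 0.133). Without masseter 1 it was -0.96. Tgfb1, the isoform most often tied to fibrosis, did not pass the filter. It read 38.9, 21.0 and 7.6 in masseter against 3.8, 19.2 and 30.4 in tibialis anterior, so that only masseter 1 and tibialis anterior 3 were above 28.6, and the muscles overlapped.

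**Figure D3:**
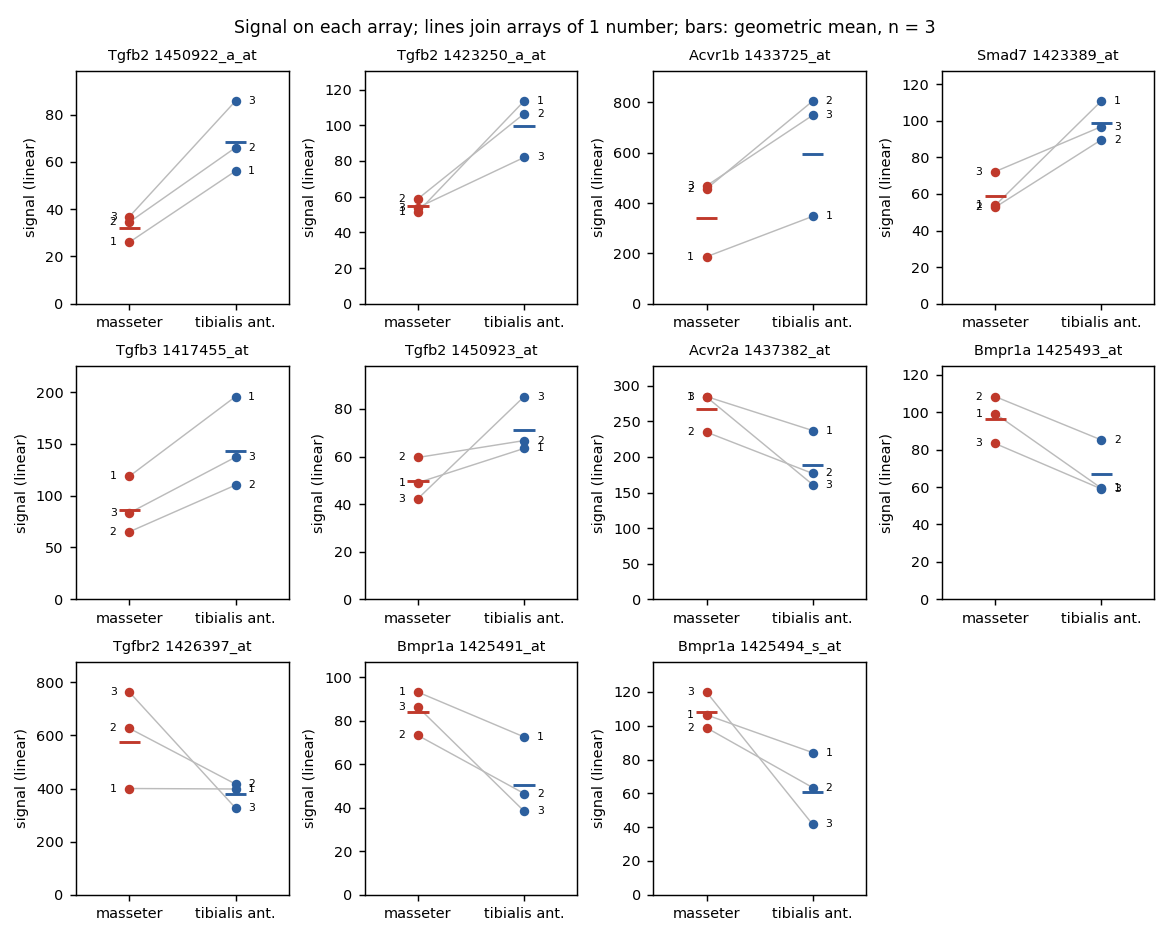
Linear signal on each array (points, numbered by sample; grey lines join arrays of the same number; bars are geometric means of 3 arrays) for the 10 member probe sets with an unadjusted p under 0.05 and the other Tgfb2 probe set. Masseter points lie below all tibialis anterior points for the 3 Tgfb2 probe sets and Smad7, and above them for Bmpr1a 1425491_at and 1425494_s_at.

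Inhba and Inhbb encode the activin subunits. Inhba, that of activin A, read 61.8, 59.6 and 81.6 in masseter against 69.6, 57.3 and 60.2 in tibialis anterior (0.11 ± 0.25, 95% interval -0.48 to 0.69). The kept Inhbb probe set read 66.3, 83.4 and 78.5 against 67.5, 78.1 and 83.3 (-0.0056 ± 0.22, 95% interval -0.51 to 0.50). The other Inhbb probe set, under the filter level, read 25.6, 28.0 and 3.9 against 48.7, 30.4 and 26.0, lower in masseter within each number. The muscles overlapped on all 3 probe sets, and intervals of this width do not show equal levels. Gdf11, the close relative of myostatin, did not pass the filter and read 69.4, 35.1 and 30.9 in masseter against 12.9, 40.1 and 12.9 in tibialis anterior. In masseter all its signals were above 28.6, while in tibialis anterior only array 2 was. Fitted without the filter, Gdf11 differed by 1.17 with an adjusted p of 0.59.

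Of the BMP ligands, Bmp4 and Bmp6 passed the filter. Bmp4, which patterns mesoderm and acts on muscle stem cells, read 38.4, 74.2 and 94.0 in masseter against 94.4, 119.7 and 83.9 in tibialis anterior (-0.61 ± 0.30, adjusted p = 0.445). Masseter 1 was the lowest array and masseter 3 lay inside the tibialis anterior range, and without masseter 1 the difference was -0.23. Bmp6, a regulator of iron balance and bone, read 157.9, 136.3 and 138.3 in masseter against 131.1, 121.4 and 132.1 in tibialis anterior. The muscles did not overlap, but the difference was small at 0.17 ± 0.18 (adjusted p = 0.775). Bmp2, an osteogenic ligand that did not pass the filter, read 31.6, 47.7 and 29.2 in masseter against 15.8, 10.8 and 20.1 in tibialis anterior. Its masseter arrays were all above 28.6 and its tibialis anterior arrays all below, and the fit without the filter gave 1.23 with an adjusted p of 0.535. Bmp2 was picked out after its values were seen.

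Of the growth differentiation factors, 3 passed the filter, and all 3 varied widely between arrays. Gdf2, a circulating ligand of endothelium also called BMP9, read 66.1, 43.6 and 60.4 in masseter against 55.0, 12.8 and 58.6 in tibialis anterior, where array 2 stood apart (0.69 ± 0.41, adjusted p = 0.544). Gdf3, a ligand of early embryos, read 39.0, 38.0 and 7.6 against 74.7, 20.9 and 44.8 (-0.88 ± 0.64, 95% interval -2.36 to 0.60, adjusted p = 0.636). The Gdf3 mean in masseter lay under the filter level, and that in tibialis anterior was 1.44 times that level. Gdf9, a growth factor of the oocyte, read 63.1, 57.8 and 14.3 against 82.0, 48.6 and 52.7 (-0.67 ± 0.43, adjusted p = 0.576). Masseter 3 was by far the lowest array for both Gdf3 and Gdf9. Without masseter 3 the differences were -0.10 for Gdf3 and 0.02 for Gdf9, and without tibialis anterior 2 that of Gdf2 was -0.02.

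The other ligand genes, Bmp5, Bmp7, Bmp8a, Bmp8b, Bmp10, Bmp15, Gdf5, Gdf10, Inhbc and Inhbe, had no probe set above the filter. Over all roles 18 of the 53 genes were in that position, the rest being Acvr1c, Fstl3, Ltbp2, Smad9 and Tgfbr3 beside the Tgfb1, Gdf11 and Bmp2 described above. The highest single signal among the 32 probe sets that did not pass was 69.4, that of Gdf11 in masseter 1. For 5 of the 32 the muscles did not overlap, against 9.35% of all probe sets under the filter (5.41% higher and 3.93% lower). Those of Bmp2, Bmp15 and Fstl3 were higher in masseter, and 1 probe set each of Bmp5 and Tgfbr2 was lower.

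Of the 8 kept probe sets for proteins that hold, release or bind ligands, 0 had an unadjusted p under 0.05 in limma. Over all kept probe sets the share was 13.1%. With no replicate block the count among the 8 was 1. Ltbp3, which anchors latent TGF-beta in the matrix, read 588.9, 582.5 and 583.6 in masseter against 513.1, 483.9 and 383.6 in tibialis anterior on probe set 1438312_s_at. The masseter arrays were nearly identical and lay above all tibialis anterior arrays (0.36 ± 0.16, adjusted p = 0.386). Its other probe set, 1418049_at, read 103.8, 105.5 and 76.2 against 78.5, 114.4 and 85.7 and overlapped (0.04 ± 0.22). Ltbp1, another latency protein, read 42.1, 55.9 and 47.4 against 29.7, 39.5 and 35.7, with no overlap (0.47 ± 0.33, adjusted p = 0.617). Ltbp4, the form that also serves elastic fibres, read 259.1, 303.3 and 233.2 against 255.0, 345.5 and 278.5 (-0.14 ± 0.16, adjusted p = 0.788).

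Fst encodes follistatin, which binds activin and myostatin and blocks them. It read 43.9, 49.1 and 34.2 in masseter against 52.4, 38.9 and 28.6 in tibialis anterior, with overlapping ranges (0.11 ± 0.35, 95% interval -0.68 to 0.91). Fstl3, a related inhibitor, read 5.5, 16.6 and 8.2 against 5.4, 3.8 and 3.1, all under the filter level. Fstl1, a secreted glycoprotein of mesenchymal cells, read 284.6, 296.8 and 127.3 against 141.8, 179.0 and 213.1 on probe set 1416221_at (0.33 ± 0.32, adjusted p = 0.733). On 1448259_at it read 199.7, 216.1 and 171.6 against 155.2, 189.9 and 189.6 (0.14 ± 0.18). Masseter 3 was the lowest masseter array on both Fstl1 probe sets, and the difference of the first was 0.73 or more in numbers 1 and 2 and -0.74 in number 3. Bmp1, which despite its name is a protease that cleaves procollagen and BMP antagonists, read 61.7, 22.6 and 64.2 in masseter against 78.8, 29.6 and 4.5 in tibialis anterior. Its tibialis anterior mean lay under the filter level, and its masseter mean was 1.56 times that level. The fitted difference of 1.03 ± 0.80 (95% interval -0.81 to 2.88, adjusted p = 0.66) rested on tibialis anterior 3, without which it was -0.11. Bmp1 1427458_at, which did not pass the filter, read 12.8, 8.7 and 21.5 against 21.1, 29.4 and 32.8, lower in masseter within each number. Likewise not kept, 1427457_a_at read 12.1, 1.6 and 34.3 against 3.2, 3.8 and 11.5.

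Receptor signals went in both directions. Acvr1b, the type I activin receptor ALK4 that passes on activin and myostatin signals, read 186.7, 456.8 and 468.7 in masseter against 347.1, 805.4 and 748.9 in tibialis anterior on probe set 1433725_at. Array 1 was the lowest in each muscle, so the ranges overlapped, while within each number masseter was lower, by -0.89, -0.82 and -0.68. The estimate was -0.80 ± 0.15 (95% interval -1.14 to -0.45, adjusted p = 0.0523). It passed the threshold in a fit without the filter (adjusted p = 0.0443) and with the filter at the 60th percentile (adjusted p = 0.0453). The small error rests on matching the numbers, since without the replicate block the adjusted p was 0.47. Leaving out masseter 1, with the numbers no longer matched, gave a difference of -0.36. The other Acvr1b probe set read between 9.8 and 14.8 on the 6 arrays and did not pass the filter.

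Bmpr1a, the type I BMP receptor ALK3, has 5 probe sets, all kept, which did not tell the same story. On 1425494_s_at it read 106.4, 98.8 and 119.9 in masseter against 84.1, 63.4 and 41.6 in tibialis anterior, with no overlap (0.84 ± 0.28, adjusted p = 0.24). On 1425491_at it read 93.1, 73.2 and 86.2 against 72.5, 46.5 and 38.4, also with no overlap (0.73 ± 0.26, adjusted p = 0.286). Probe set 1425493_at read 99.3, 108.4 and 83.3 against 59.4, 85.2 and 59.0 (0.53 ± 0.22, adjusted p = 0.361). The remaining pair differed less. On 1425492_at the signals were 621.5, 549.7 and 695.8 in masseter against 609.0, 728.9 and 441.4 in tibialis anterior (0.09 ± 0.21), and on 1451729_at they were 77.0, 47.8 and 65.0 against 47.3, 77.6 and 46.5 (0.16 ± 0.33). All 5 estimates were above 0, and tibialis anterior 3 was the lowest array on each of them. The difference of 1425494_s_at was 0.85 without masseter 1 and 0.49 without the arrays of number 3.

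The upstream stretches of Acvr1b and Bmpr1a are shown as those of the receptors with the smallest p on each side of 0, with the motif matches in capitals as for Tgfb2. Acvr1b lies on the plus strand (chr15:101173822-101174071) and Bmpr1a on the minus strand (chr14:34502547-34502796), both GRCm38.p6.
Acvr1b: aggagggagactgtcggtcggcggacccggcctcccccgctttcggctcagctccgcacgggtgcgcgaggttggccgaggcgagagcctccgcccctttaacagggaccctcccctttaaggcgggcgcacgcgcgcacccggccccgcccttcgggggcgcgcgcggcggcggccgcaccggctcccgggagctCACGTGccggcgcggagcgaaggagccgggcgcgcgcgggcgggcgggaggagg
Bmpr1a: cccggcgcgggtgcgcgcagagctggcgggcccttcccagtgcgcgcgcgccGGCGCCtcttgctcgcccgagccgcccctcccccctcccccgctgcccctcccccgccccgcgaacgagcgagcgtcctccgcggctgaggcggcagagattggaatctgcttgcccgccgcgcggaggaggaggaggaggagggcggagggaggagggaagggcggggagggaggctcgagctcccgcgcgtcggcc
Of the 5 motifs, Acvr1b holds CACGTG, as Tgfb2 does, and Bmpr1a holds GGCGCC, which 9.59% of all windows hold. Among the 39 member genes, 20.5% hold GGCGCC. Both stretches are rich in G and C, at 78.8% each against 53.6% for Tgfb2. The median was 52.4% over all windows and 64.2% over those of the member genes.

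Among the type II receptors, Tgfbr2, which binds TGF-beta, read 400.1, 626.7 and 763.1 in masseter against 398.3, 416.9 and 326.7 in tibialis anterior on probe set 1426397_at. Masseter 1 lay within the tibialis anterior range and the other masseter arrays above it (0.61 ± 0.23, adjusted p = 0.298). The differences within numbers 1, 2 and 3 were 0.0065, 0.59 and 1.22, and the estimate was 0.87 without masseter 1, 0.40 without masseter 3 and 0.30 without the arrays of number 3. The other Tgfbr2 probe sets did not pass the filter. Of these, 1422019_at read 1.3, 2.2 and 1.1 in masseter against 4.0, 3.1 and 9.4 in tibialis anterior, lower without overlap. Fitted without the filter it differed by -1.74 (adjusted p = 0.5). On 1425444_a_at the signals were 6.4, 43.8 and 49.3 against 27.6, 13.2 and 35.1, with overlap. Acvr2a, a receptor of activin and myostatin, read 284.9, 234.9 and 284.3 against 237.1, 176.8 and 161.1 on 1437382_at (0.50 ± 0.18, adjusted p = 0.29). Masseter was higher within each number, and masseter 2 lay just under tibialis anterior 1. The other Acvr2a probe set read 63.0, 25.4 and 49.6 against 35.8, 48.3 and 43.8 (0.02 ± 0.41). Acvr2b, the main myostatin receptor, read 67.5, 80.9 and 81.2 against 96.4, 78.0 and 70.8 (-0.09 ± 0.24, 95% interval -0.64 to 0.46). Bmpr2, the type II BMP receptor, read 34.3, 57.2 and 44.7 in masseter against 24.4, 32.1 and 18.6 in tibialis anterior, with no overlap. Its tibialis anterior mean of 24.4 lay under the filter level, and its masseter mean was 1.55 times that level. The fitted Bmpr2 difference was 0.86 ± 0.41 (95% interval -0.08 to 1.80, adjusted p = 0.428).

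Of the remaining type I receptors, Tgfbr1, the TGF-beta receptor ALK5, read 300.5, 245.8 and 267.7 in masseter against 250.4, 257.0 and 210.1 in tibialis anterior (0.18 ± 0.17, adjusted p = 0.728). Tgfbr1 1420893_a_at and 1420894_at did not pass the filter, and the muscles overlapped on both. Fitted without the filter they differed by -1.22 (adjusted p = 0.681) and 0.26 (adjusted p = 0.961). Acvr1, the BMP receptor ALK2, read 135.6, 100.6 and 86.1 against 89.5, 148.8 and 110.5 (-0.11 ± 0.26, adjusted p = 0.909). A further one that passed the filter, 1416787_at, lay near the filter level at 23.7, 16.2 and 36.7 against 55.3, 33.4 and 25.4. Acvrl1, the endothelial receptor ALK1, read 97.3, 116.6 and 124.5 against 109.1, 129.0 and 111.3 (-0.05 ± 0.20), and Bmpr1b read 31.0, 46.8 and 65.7 against 46.3, 23.1 and 45.3 (0.33 ± 0.40). The coreceptor Tgfbr3, or betaglycan, read between 6.7 and 28.8 and did not pass the filter. Of the 16 kept receptor probe sets, 5 were higher and 1 lower in masseter at an unadjusted p under 0.05 in limma. Over all kept probe sets 6.93% were higher and 6.12% lower. Those higher were of only Acvr2a, Tgfbr2 and Bmpr1a (1425494_s_at, 1425493_at and 1425491_at), and probe sets of 1 gene are not independent. The count of 5 was 0 without the arrays of number 3 and 1 without tibialis anterior 3.

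Among the Smads, the inhibitory Smad7 had lower signals in masseter. It read 53.7, 52.7 and 72.2 in masseter against 110.8, 89.6 and 96.8 in tibialis anterior, with no overlap (-0.74 ± 0.24, 95% interval -1.29 to -0.20, adjusted p = 0.22). Without masseter 1 the difference was -0.68. Smad6, the other inhibitory Smad, read 81.7, 76.4 and 82.1 against 104.1, 120.9 and 78.7. Tibialis anterior 3 lay among the masseter arrays (-0.32 ± 0.23, adjusted p = 0.629), and without the arrays of number 2 the difference was -0.14.

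The receptor Smads of the TGF-beta and activin branch are Smad2 and Smad3. Smad2 read 65.6, 76.3 and 75.2 in masseter against 109.9, 85.5 and 82.5 in tibialis anterior, with no overlap (-0.35 ± 0.23, adjusted p = 0.598). Smad3 read 45.0, 47.5 and 73.0 against 56.6, 88.7 and 55.7 on its kept probe set (-0.28 ± 0.31, adjusted p = 0.779). Without the arrays of number 1 the Smad2 difference was -0.15, and without those of number 2 the Smad3 difference was 0.030. In the BMP branch, Smad1 read 74.6, 169.5 and 102.7 against 215.8, 160.3 and 140.8 (-0.64 ± 0.29, adjusted p = 0.416). A second Smad1 probe set differed by 0.0081 ± 0.52. Smad5 read 34.8, 90.5 and 103.7 against 128.3, 66.4 and 80.0 (-0.35 ± 0.43, adjusted p = 0.801). Masseter 1 was the lowest array for both, and without it the differences were -0.36 for Smad1 and 0.14 for Smad5. The other Smad5 probe set did not pass the filter, at 19.8, 10.1 and 24.1 against 22.2, 24.8 and 21.8.

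Smad4, the shared partner of all receptor Smads, differed little on any of its 3 probe sets. On 1422486_a_at it read 1097, 1062 and 996.9 in masseter against 994.4, 893.7 and 864.3 in tibialis anterior, with no overlap and a difference of 0.20 ± 0.13 (95% interval -0.11 to 0.50). On 1422485_at it read 413.5, 368.9 and 444.4 against 416.7, 242.2 and 395.7 (0.25 ± 0.18), and on 1422487_at 613.4, 779.9 and 710.1 against 705.0, 838.1 and 749.1 (-0.13 ± 0.14). The estimates of the 3 probe sets thus stood on both sides of 0.

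**Figure D4:**
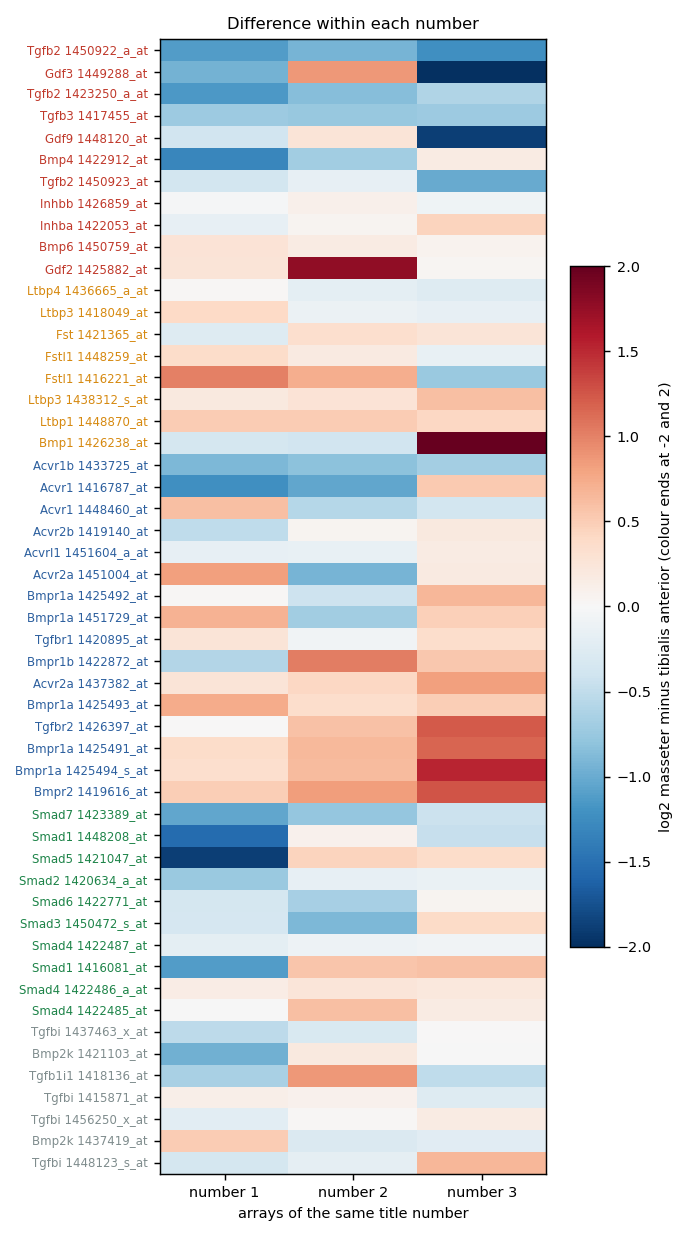
Log2 difference, masseter minus tibialis anterior, within arrays of the same title number (columns) for the 52 kept member probe sets (rows, names coloured by role as in the plot of differences with intervals). Tgfb2, Tgfb3, Acvr1b and Smad7 are below 0 in all 3 columns, whereas Smad1 1448208_at and Smad5 have their lowest difference in number 1.

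Caught by the naming rule are 3 genes that are neither ligands nor receptors. Tgfbi, a matrix protein induced by TGF-beta, had 4 kept probe sets with differences from -0.27 to 0.04. Tgfb1i1, a focal adhesion protein also called Hic-5, read 80.8, 135.4 and 101.4 in masseter against 127.0, 73.9 and 143.5 in tibialis anterior (-0.09 ± 0.31). The kinase Bmp2k had 2 probe sets near the filter level, with differences of -0.26 and -0.00037. None of these 7 probe sets had an unadjusted p under 0.05 in limma, against 13.1% of all kept probe sets. Their smallest adjusted p was 0.599.

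Other genes of the pathway were read from the probe set with the highest mean signal of each. The lists held symbols, and a few genes were listed under an older symbol too. Over all kept probe sets 1.18% were past the threshold and 13.1% had an unadjusted p under 0.05 in limma. Of 21 symbols of ligands and antagonists outside the naming rule, 15 had a probe set and 9 passed the filter. Among the 9, 0 were past the threshold and 0 had an unadjusted p under 0.05. Of 21 symbols of intracellular regulators, 15 had a probe set and 12 passed the filter, with the same counts of 0. Of 18 symbols of coreceptors and activators of latent ligand, 11 had a probe set and 5 passed the filter. Past the threshold, 1 of the 5 was higher in masseter and 0 were lower. The higher one was Itgb6, the integrin subunit that frees TGF-beta from its latent complex in epithelia. It read 101.1, 162.3 and 142.0 in masseter against 54.2, 66.6 and 55.8 in tibialis anterior, with no overlap (1.18 ± 0.22, adjusted p = 0.0487). Itgb6 stayed past the threshold in 3 of 15 alternatives. With no replicate block its adjusted p was 0.054, and with all probe sets tested it was 0.0948. Without masseter 1 the difference was 1.37.

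Of 16 listed symbols of transcripts known to respond to the pathway, 14 had a probe set and 12 passed the filter. Past the threshold there were 0 in either direction, against 1.18% of all kept probe sets. At an unadjusted p under 0.05, 2 were lower in masseter and 0 higher, against 6.12% lower and 6.93% higher over all kept probe sets. These were Col1a1, a chain of type I collagen, which read 57.8, 55.1 and 39.5 against 118.9, 67.0 and 217.1 (-1.26, adjusted p = 0.2), and Ccn2, connective tissue growth factor, which read 326.0, 201.3 and 264.2 against 328.0, 275.9 and 522.5 (-0.48, adjusted p = 0.38). Id1, a direct target of BMP Smads, read 207.1, 89.5 and 198.7 in masseter against 277.3, 79.0 and 223.4 in tibialis anterior, and Id3 read 247.0, 153.1 and 301.5 against 315.9, 123.0 and 259.6. Array 2 was the lowest for both Id genes in both muscles, and the muscles overlapped. Fn1 went the other way from Col1a1 and Ccn2, at 342.3, 464.4 and 439.9 in masseter against 328.9, 324.9 and 320.2 in tibialis anterior. It was higher in masseter with no overlap (0.34, adjusted p = 0.437). These genes were named after their values were seen.

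Markers of other cell types moved with the muscles in part. Signals of the 5 smooth muscle markers summed to 3898 to 4738 in masseter and 5458 to 6995 in tibialis anterior, with all 5 markers above the filter. Of these, Rgs5, Acta2 and Tagln had differences of -0.44, -0.47 and -0.35, but Myh11 and Cnn1 had 0.07 and 0.13. Only Rgs5 did not overlap between the muscles. The nerve markers, of which 3 of 5 had a probe set, summed to 937.3 to 1017 and 549.4 to 647.2. Summed signals of the 6 markers of extracellular matrix and fibroblasts overlapped, at 5524 to 5959 in masseter and 4561 to 5958 in tibialis anterior. Dcn had the highest signals of the 6. Pdgfra was higher in masseter with no overlap (0.78, adjusted p = 0.118), and Col1a1 was lower with no overlap (-1.26, adjusted p = 0.2). Lum, Dcn, Col1a2 and Col3a1 overlapped, with differences of 0.28, 0.16, -0.02 and -0.16. Signals of the 5 endothelial markers summed to 753.1 to 892.1 and 730.1 to 1031, again with overlap. Summed signals of the 5 tendon markers also overlapped, at 768.5 to 1200 and 1020 to 1449, but the markers did not run alike. Thbs4, a matrix protein of tendon, was lower in masseter (-1.65, adjusted p = 0.025). Comp, another, had a difference of -0.66 (adjusted p = 0.192), and neither it nor the tendon factor Scx overlapped between the muscles, both lower in masseter. Fmod, a collagen-binding proteoglycan, had an estimate of 0.26 (adjusted p = 0.672), on the other side of 0. The erythroid markers, 3 of 4 with a probe set, summed to 222.9 to 246.2 in masseter and 128.4 to 164 in tibialis anterior. Most of each sum was Alas2, the only one that passed the filter (0.74, adjusted p = 0.124). It read 191.4 to 210.4 in masseter and 100.3 to 138.9 in tibialis anterior. The adipocyte markers, 3 of 5 with a probe set, summed to 4030 to 5748 and 2885 to 4934, and Adipoq among them was higher in masseter (1.26, adjusted p = 0.0167). The 5 immune markers summed to 444.7 to 667.4 and 383.2 to 638. No marker with a probe set was listed at 0. The part of other cell types in the signals of Tgfb2, Tgfb3, Smad7 and the receptors was not tested.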

How the data were processed

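Per the labels' protocols, biotinylated copies of total muscle RNA were read on short-oligonucleotide arrays, 1 for each sample. The deposited values are signal intensities on a linear scale, made by the authors with MAS5 and GCOS per the submitters' processing notes. Versions and settings: not given in the sources used here. Gene names come from the platform's annotation table. All 84 member probe sets matched a current gene table, with 0 symbols changed.

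A floor of 1 was applied to the signals before taking log2. The 64 control probe sets were left out, and probe sets at or above the 40th percentile of mean log2 signal were kept. Two-sided tests came from limma 3.58.1 under R 4.3.3, using lmFit and eBayes with its trend option. The number in the sample title was a fixed block, since the series' design speaks of pairing. P-values were adjusted by Benjamini-Hochberg over all 13576 kept probe sets. SAM, which that design names, was not run. Alternatives were no block, no trend, quantile normalization, no filter or a stricter one, 16 added before log2, and leaving out each array or number.

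The values of every array were given for members past the threshold (there were none), members with an unadjusted p under 0.05 and alike in sign in all 3 numbers, the 8 largest differences in each direction, and a fixed list of pathway members. The members and lists were chosen with earlier results of these data known. The procedure was tested on simulated data. With 3 arrays a muscle, their number limits the precision.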

Additional observations from a re-analysis of the deposited data

How the results depend on the processing

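The count of member probe sets past the threshold was 0 with the replicate block and 0 without the replicate block, where the smallest adjusted p was 0.127. It was 1 with no filter and 1 when the filter stood at the 60th percentile, Acvr1b both times, and 0 in each other alternative, those that leave out 1 array or 1 number included. Deviations from the group means correlated at 0.04, 0.15 and 0.10 between same-numbered arrays, and masseter 1 correlated slightly more with tibialis anterior 2, so the data do not show that every number pairs its samples. The count over all probe sets was 160, and 138 without the block. It was 13 with eBayes without trend and ran from 45 to 173 with 1 array or number left out, where fits without 1 array do not match the numbers. The median over the members ran from -0.11 to 0.07 in those fits. Of 33 named probe sets, Itgb6 among them, 22 kept the sign of their difference in all alternatives that gave a value. The other 11 were uncalled, and leaving out 1 array or number turned their sign. Their differences then ran from -0.46 to 0.12 for Acvr1, -0.23 to 0.13 for Acvr2b, -0.37 to 1.95 for Bmp1, -0.19 to 0.34 for Bmpr1a 1425492_at, -0.11 to 0.33 for Fst, -0.0069 to 0.87 for Fstl1, -0.024 to 1.07 for Gdf2, -1.13 to 0.023 for Gdf9, -0.057 to 0.25 for Inhba, -0.62 to 0.030 for Smad3 and -0.75 to 0.41 for Smad5. The causes were not tested. Signals near the filter level of 28.6 limit what can be said of the ligands.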
